A study of Mus musculus with 8 samples.

Results

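The genes described here are 41 genes of myeloid cells and of leukocytes in general, taken by symbol from a list of macrophage, granulocyte and pan-leukocyte genes, out of 29092 genes in the mRNA-seq count table. Each of the 41 symbols had 1 row in the table, and all 41 genes had enough reads to be tested. mRNA was sequenced from GFP+ enteric neural crest-derived cells (ENCDCs) and from GFP- gut cells, which were separated by fluorescence-activated cell sorting from E13.5 mouse bowel (stomach to anus), with 4 libraries of each population. ENCDCs are the migrating precursors of the enteric neurons and glia. The embryos of both populations came from crosses of heterozygous *Ednrb-EGFP* mice with wild-type C57BL/6J mice, and they were untreated. *Ednrb-EGFP* mice carry an EGFP reporter driven by the regulatory sequence of *Ednrb*. Bowels with GFP were picked under a microscope before sorting, so the embryos of both populations carried the reporter, although the labels give the genotype as wild-type. The GFP- gut cells are a mixture of every other cell of the bowel wall, and some libraries hold RNA pooled over several samples; p-values therefore measure the spread between these libraries. Each library was started from 750 pg of RNA, and the kits leave the strand of a transcript unknown.

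Tissue macrophages of the fetus derive from precursors in the yolk sac and fetal liver and need the receptor *Csf1r* to survive. They engulf dying cells, bind immune complexes through Fc receptors that signal by adaptors with an immunoreceptor tyrosine-based activation motif (ITAM), and make the C1q chains of the complement cascade. Granulocyte precursors load their granules with myeloperoxidase and with serine proteases that are transcribed only early in their maturation. Both lineages depend on the transcription factor PU.1, the product of *Spi1*, and all nucleated leukocytes carry the phosphatase CD45, the product of *Ptprc*.

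The values below are deposited read counts where they are given for single libraries, in the order of replicates 1 to 4, and counts scaled by trimmed mean of M-values (TMM) factors where a mean is given; a mean stands with ± its SD over the 4 libraries of a population. Library totals were 13250893 to 13264785 reads for the ENCDC libraries and 13257119 to 13267220 for the gut libraries, so a single read stood for nearly the same share of every library. All 10 enteric neural crest genes tested were higher in ENCDCs, as the labels require; *Ednrb* itself averaged 38742 ± 3246 normalized counts in the ENCDC libraries and 2514 ± 122 in the gut libraries. ENCDC replicate 3 stood apart from the other ENCDC libraries. It had a count for 17953 genes, against 19123 to 20070 in the other ENCDC libraries, and its summed level of 14 mesenchyme and smooth muscle genes was 13.51% of the gut mean, against 2.43% to 5.26% in the others. Fold changes that this library moved by more than 1.5 times are given with and without it, where ENCDC reads remained.

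ENCDCs held very little of the myeloid and leukocyte transcripts. Of the 41 genes, 40 were lower and 0 were higher in ENCDCs, relative to gut cells, at an adjusted p under 0.05 by edgeR's quasi-likelihood test with Benjamini-Hochberg adjustment, while *Prtn3* did not pass. Of all 18866 genes tested, 20.9% were lower and 17.0% were higher. Only 20 of the 41 genes had enough reads in ENCDCs to be tested on that account. The others were tested through their gut counts alone, which favours a call of lower, and the shares of all tested genes are not matched for this. No gene of the 41 was higher at an unadjusted p under 0.05 in edgeR, or at an adjusted p under 0.05 by voom and limma or DESeq2. All 41 genes had every ENCDC library below every gut library, which held for 21.3% of all tested genes. The median log2 fold change (ENCDCs over gut cells) of the 41 genes was -6.36 (-6.20 with the genes that had no ENCDC read at their bound), beside -0.04 for all tested genes. Fitted values ran from -11.58 for *Myo1f*, which had no ENCDC read and whose value depends on the prior count, to -0.74 for *Prtn3*. Without ENCDC replicate 3 the same number, 40, was called lower. In sorted bulk samples, fewer cells of a type and less RNA per cell cannot be told apart.

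**Figure D1:**
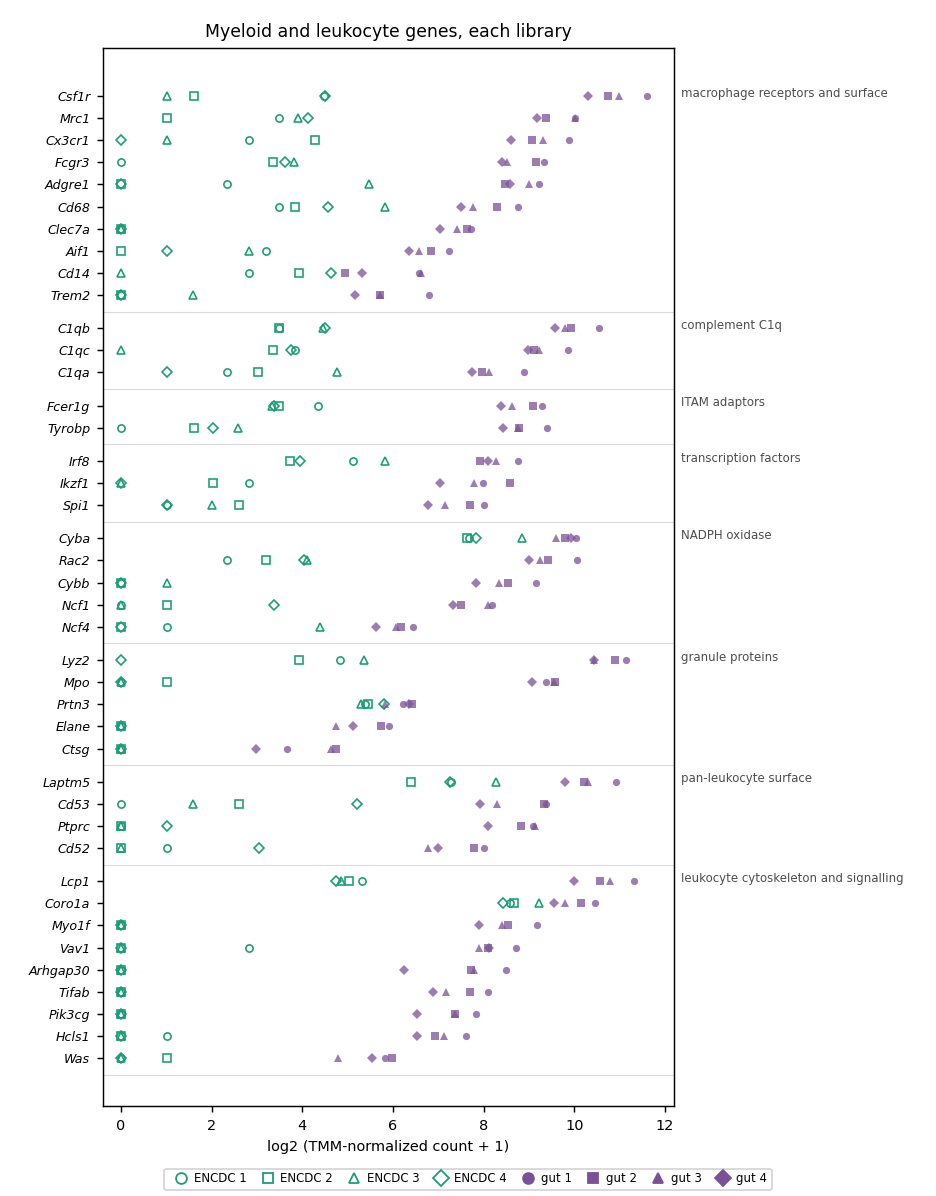
Level of each of the 41 genes in each library, as log2 of the TMM-normalized count plus 1 on the horizontal axis, with genes grouped by role down the page. Open green symbols are the 4 ENCDC libraries and filled purple symbols the 4 gut libraries; in all 41 genes the green symbols lie left of the purple ones, and in *Prtn3* the populations lie next to each other.

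Some of the 41 genes were close to undetected in ENCDCs. A group of 7 genes (*Clec7a*, *Elane*, *Ctsg*, *Myo1f*, *Arhgap30*, *Pik3cg* and *Tifab*) had no read in any ENCDC library, which was the case for 3.38% of all tested genes. These 7 genes could be tested through their gut counts alone, as could the others of the 41 that were not present in ENCDCs by the rule below. The 3.38% is a share of all tested genes, also of those tested on account of their ENCDC reads. Another 6 genes (*Trem2*, *Cybb*, *Mpo*, *Ptprc*, *Was* and *Hcls1*) had 1 or 2 reads over the 4 libraries together. A further 14 genes had a read in every ENCDC library. By the presence rule used for testing (on average at least 3 reads, with a read in at least 3 of 4 libraries), all 41 genes were present in gut cells and 20 of them in ENCDCs. Relative to the gut mean, 36 genes averaged 10% or less in ENCDCs and 5 averaged more, namely *Prtn3*, *Coro1a*, *Cyba*, *Cd14* and *Laptm5*.

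Per kilobase of exon, the most abundant of these transcripts in gut cells was that of *Lyz2*, the lysozyme of macrophages and granulocytes, at 1310 ± 322 normalized counts per kb (SD, n = 4). *C1qb* followed with 943 ± 292, *Cyba* with 888 ± 110, *Tyrobp* with 709 ± 216 and *Fcer1g* with 543 ± 153 normalized counts per kb. Each step between neighbours in this order was smaller than the larger of their 2 SDs, apart from the step between *Lyz2* and *C1qb*. The lowest levels were those of *Trem2*, at 12.5 ± 6.67 normalized counts per kb, and *Ctsg*, at 16.4 ± 8.81. *Lyz2* has a nearly identical neighbour, *Lyz1*, to which reads can be misassigned; *Lyz1* was too low to be tested.

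The macrophage genes grouped as receptors and surface proteins were all lower in ENCDCs, 10 of 10, with a median log2 fold change of -6.06. The group also holds *Aif1*, an actin-binding protein, and *Cd68*, a glycoprotein of late endosomes. *Csf1r*, the receptor for the macrophage growth factors CSF1 and IL-34, had 21, 2, 1 and 21 reads in the ENCDC libraries, against 3215, 1745, 2046 and 1271 in the gut libraries. Its level in ENCDCs was 0.567% of the gut mean, and the log2 fold change was -7.45 (standard error 0.55, adjusted p = 1.55e-06). *Mrc1*, the mannose receptor of tissue macrophages, had 10, 1, 14 and 16 reads in ENCDCs, against 1068, 674, 1057 and 580 in gut cells (log2 fold change -6.30, standard error 0.45, adjusted p = 1.22e-06). Between these genes the lowest gut library had 580 reads and the highest ENCDC library 21.

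The other genes of this group had fewer reads in gut cells, without regard to gene length, and scattered reads in ENCDCs. *Cx3cr1*, the receptor for the chemokine fractalkine, had 6, 18, 1 and 0 reads in ENCDCs, against 971, 545, 638 and 390 in gut cells. *Fcgr3*, an Fc receptor for IgG, had 0, 9, 13 and 11 reads in ENCDCs, against 663, 579, 372 and 341 in gut cells. *Adgre1*, which encodes the F4/80 antigen, had 4, 0, 43 and 0 reads in ENCDCs, against 612, 361, 522 and 386 in gut cells. The reads of *Adgre1* in ENCDCs came almost wholly from replicate 3, and that library was also the highest for *Cd68*, a glycoprotein of late endosomes, with 55 reads against 10, 13 and 22 in the other ENCDC libraries and 183 to 446 in gut cells. *Clec7a*, which encodes the fungal glucan receptor Dectin-1, had no read in ENCDCs and 131 to 215 in gut cells, so its level was at least 232-fold lower (floor of 3 reads over the 4 ENCDC libraries). *Trem2*, a lipid receptor that signals through the product of *Tyrobp*, had 2 reads in ENCDC replicate 3 and none in the others, against 113, 52, 52 and 35 in gut cells, a ratio of gut cells over ENCDCs of 122 (95% counting interval 33.4 to 1011). *Aif1*, the actin-binding protein Iba1, had 0 to 8 reads in ENCDCs and 81 to 154 in gut cells.

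*Cd14*, the co-receptor for bacterial lipopolysaccharide, was the least certain of the macrophage genes. It had 6, 14, 0 and 23 reads in ENCDCs, against 97, 30, 98 and 39 in gut cells. The gut libraries fell into a high pair and a low pair, and the populations did not overlap, but the gap between 23 and 30 reads was small. Its ENCDC mean was 17.0% of the gut mean (log2 fold change -2.54, standard error 0.88, adjusted p = 0.041). It lost its call without ENCDC replicate 1 (adjusted p = 0.0932) or 2 (0.0648) and without gut replicate 1 (0.109), 3 (0.112) or 4 (0.0544).

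The 3 genes for the chains of C1q, the recognition molecule of the classical complement pathway, lie side by side on chromosome 4 (mm10, 136879929 to 136899003 in the table), and all were lower in ENCDCs. *C1qb* had 10, 10, 21 and 21 reads in ENCDCs, against 1529, 987, 900 and 768 in gut cells (log2 fold change -6.01, standard error 0.32, adjusted p = 1.61e-07). *C1qc* had 13, 9, 0 and 12 reads in ENCDCs, against 951, 565, 603 and 507 in gut cells (log2 fold change -6.20, standard error 0.51, adjusted p = 3.56e-06). *C1qa* had 4, 7, 26 and 1 reads in ENCDCs, against 487, 251, 279 and 214 in gut cells. The chains did not share a library order in ENCDCs, since replicate 3 had the most *C1qa* reads and no *C1qc* read, while in gut cells replicate 1 was the highest and replicate 4 the lowest for all 3.

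The ITAM adaptors that carry the signals of Fc receptors and of Trem2 followed the receptors. *Tyrobp*, which encodes DAP12, had 0, 2, 5 and 3 reads in ENCDCs, against 698, 444, 440 and 345 in gut cells (log2 fold change -7.47, standard error 0.48, adjusted p = 5.53e-07). *Fcer1g*, the common gamma chain of Fc receptors, had 19, 10, 9 and 9 reads in ENCDCs, against 642, 553, 400 and 337 in gut cells (log2 fold change -5.30, standard error 0.34, adjusted p = 5.35e-07). For both genes every ENCDC library lay below every gut library.

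The 3 transcription factors of the list were lower as well. *Spi1*, which encodes PU.1, had 1, 5, 3 and 1 reads in ENCDCs, against 264, 211, 142 and 110 in gut cells (log2 fold change -6.06, standard error 0.55, adjusted p = 8.28e-06). *Ikzf1*, which encodes the lymphoid and myeloid factor Ikaros, had 6, 3, 0 and 0 reads in ENCDCs, against 261, 387, 223 and 131 in gut cells (log2 fold change -6.67, standard error 0.72, adjusted p = 3.06e-05). *Irf8*, a factor of monocytes and dendritic cells, had 33, 12, 55 and 14 reads in ENCDCs, against 443, 244, 312 and 275 in gut cells (log2 fold change -3.43, standard error 0.45, adjusted p = 1.39e-04). *Irf8* thus kept 9.23% of its gut mean in ENCDCs, where *Spi1* kept 1.42%.

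The phagocyte NADPH oxidase is built from a membrane pair, *Cybb* (gp91phox) and *Cyba* (p22phox), cytosolic subunits that include *Ncf1* (p47phox) and *Ncf4* (p40phox), and the GTPase *Rac2*. The membrane pair differed in ENCDCs. *Cybb* had a single read over the 4 ENCDC libraries, in replicate 3, against 590, 375, 328 and 230 reads in gut cells, a ratio of gut cells over ENCDCs of 1472 (95% counting interval 264 to 58183). *Cyba*, whose product also partners other oxidases outside phagocytes, had 201, 195, 455 and 221 reads in ENCDCs, against 1079, 908, 790 and 978 in gut cells. It was lower in ENCDCs (log2 fold change -1.76, standard error 0.26, adjusted p = 2.94e-04) but kept 29.5% of its gut mean, and in ENCDC replicate 3 it stood at more than 2 times its count in any other ENCDC library.

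*Rac2*, *Ncf1* and *Ncf4* averaged 1.53%, 1.14% and 7.78% of their gut means in ENCDCs. *Rac2* had 4, 8, 16 and 15 reads in ENCDCs, against 1093, 695, 616 and 517 in gut cells (log2 fold change -6.02, standard error 0.39, adjusted p = 5.82e-07). *Ncf1* had 0, 1, 0 and 9 reads in ENCDCs, against 299, 184, 277 and 162 in gut cells; it shares 408 exon bases with *Gtf2ird2* on the opposite strand. *Ncf4* had 1, 0, 20 and 0 reads in ENCDCs, against 88, 72, 67 and 49 in gut cells (log2 fold change -3.65, standard error 1.10, adjusted p = 0.0225), and its ENCDC reads lay almost wholly in replicate 3. *Ncf4* lost its call without ENCDC replicate 1 (adjusted p = 0.0529) and without gut replicate 1 (0.0571) or 2 (0.0514).

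Among the granule proteins, 4 of 5 were lower in ENCDCs. *Lyz2* had 27, 14, 40 and 0 reads in ENCDCs, against 2308, 1925, 1398 and 1389 in gut cells (log2 fold change -6.38, standard error 0.52, adjusted p = 3.58e-06). *Mpo*, the myeloperoxidase of neutrophil precursors, had 0, 1, 0 and 0 reads in ENCDCs, against 683, 772, 765 and 544 in gut cells, a ratio of gut cells over ENCDCs of 2672 (95% counting interval 479 to 105560). Its fitted log2 fold change, -10.81, was the lowest of the 41 genes after that of *Myo1f* (adjusted p = 1.55e-08). *Elane*, neutrophil elastase, had no read in ENCDCs, against 61, 53, 26 and 34 in gut cells, and was at least 56.1-fold lower. *Ctsg*, cathepsin G, had no read in ENCDCs, against 12, 26, 24 and 7 in gut cells, and was at least 22.2-fold lower.

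*Prtn3*, proteinase 3, was the exception. It had 40, 42, 38 and 53 reads in ENCDCs, against 76, 86, 56 and 82 in gut cells. The populations were separated only by the step between 53 and 56 reads, and the ENCDC mean was 59.7% of the gut mean (log2 fold change -0.74, standard error 0.35, adjusted p = 0.119 by edgeR and 0.0383 by DESeq2). *Elane*, its neighbour on chromosome 10 and a protease of the same granules, had no read in ENCDCs. In the annotation, 159 exon bases of *Prtn3* (9.18% of its exon bases; mm10 chromosome 10, 79874476 to 79874634) overlap an exon of *Plppr3* on the opposite strand. *Plppr3*, which is related to phospholipid phosphatases, had 2268, 2061, 2264 and 2006 reads in ENCDCs, against 1649, 1175, 1148 and 1264 in gut cells. The interval of *Prtn3* in the table begins at 79874276, while the RefSeq start of the gene is at 79879667. Reads of the 2 genes in the shared bases cannot be assigned to a strand, and their part in the count of *Prtn3* was not tested.

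The promoters of 4 of the 5 granule genes are shown, those that held the box described here, because these genes, expressed together by granulocyte precursors, ran from 0 reads to 59.7% of the gut level in ENCDCs, and *Prtn3* can be compared with its neighbours at the start site that RefSeq gives. Each sequence is the 250 bases before the RefSeq start in GRCm38.p6, 5′ to 3′ on the strand of the gene. The capitals mark GAGGAAG, a purine-rich box of the kind that PU.1 and other ETS factors bind, which was searched for on both strands of the window from 250 bases before to 50 bases after the start. The *Mpo* sequence is chr11:87793534-87793783 (plus strand), that of *Elane* chr10:79886062-79886311 (plus strand), that of *Prtn3* chr10:79879417-79879666 (plus strand) and that of *Ctsg* chr14:56102575-56102824 (minus strand).
*Mpo*: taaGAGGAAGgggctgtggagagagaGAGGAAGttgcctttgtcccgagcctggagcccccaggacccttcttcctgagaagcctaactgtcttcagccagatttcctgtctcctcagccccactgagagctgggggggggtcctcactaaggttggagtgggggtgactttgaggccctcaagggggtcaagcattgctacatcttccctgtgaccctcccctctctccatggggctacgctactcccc
*Elane*: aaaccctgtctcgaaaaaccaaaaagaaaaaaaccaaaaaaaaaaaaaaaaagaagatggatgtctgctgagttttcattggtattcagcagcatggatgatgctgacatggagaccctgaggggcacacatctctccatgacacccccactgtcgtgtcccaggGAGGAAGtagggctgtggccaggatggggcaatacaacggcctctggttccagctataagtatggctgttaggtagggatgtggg
*Prtn3*: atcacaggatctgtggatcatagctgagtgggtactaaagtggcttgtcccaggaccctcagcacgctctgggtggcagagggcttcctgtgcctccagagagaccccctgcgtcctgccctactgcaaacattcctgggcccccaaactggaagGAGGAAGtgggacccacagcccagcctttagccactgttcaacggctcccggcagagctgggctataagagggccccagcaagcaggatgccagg
*Ctsg*: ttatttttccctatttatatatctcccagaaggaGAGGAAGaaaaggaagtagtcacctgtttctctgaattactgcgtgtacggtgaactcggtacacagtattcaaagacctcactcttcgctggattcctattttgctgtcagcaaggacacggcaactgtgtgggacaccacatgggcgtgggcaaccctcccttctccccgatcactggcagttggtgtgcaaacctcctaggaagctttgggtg

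The 4 promoters were chosen for the box and held it on the strand of the gene, while the window of *Lyz2*, the remaining granule gene, did not hold it. It began 85 bases before the start in *Elane*, 95 in *Prtn3*, 216 in *Ctsg*, and 247 and 224 in *Mpo*, which held 2 copies. RefSeq windows were matched by symbol for 32 of the 41 genes, and 12 of the 32 (37.5%) held GAGGAAG on either strand, against 15.4% of 27025 genes with a window. The others with the box were *C1qc*, *Cd53*, *Fcgr3*, *Laptm5*, *Mrc1*, *Pik3cg*, *Trem2* and *Vav1*. The core GGAA alone, which is part of the box, occurred in a window of 32 of the 32 genes, though not in all of their 40 windows (97.5%), against 96.5% of all genes. *Adgre1*, *C1qa*, *Cd14*, *Cd52*, *Csf1r*, *Ncf4*, *Rac2*, *Spi1* and *Tyrobp* had no matched window. A match of letters is a description and not evidence of binding.

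The genes grouped as pan-leukocyte surface genes, which include the lysosomal *Laptm5*, were lower in ENCDCs, 4 of 4. *Ptprc*, which encodes CD45, had a single read over the 4 ENCDC libraries, in replicate 4, against 556, 461, 572 and 277 reads in gut cells (log2 fold change -10.24, standard error 0.55, adjusted p = 1.52e-07). The ratio of gut cells over ENCDCs was 1804, with a 95% counting interval from 323 to 71278. *Cd53*, a tetraspanin, had 0, 5, 2 and 35 reads in ENCDCs, against 679, 652, 317 and 243 in gut cells (log2 fold change -5.42, standard error 0.82, adjusted p = 3.73e-04). *Cd52*, a small anchored glycoprotein, had 0 to 7 reads in ENCDCs and 109 to 264 in gut cells. The highest ENCDC library was replicate 4 for *Ptprc*, *Cd53* and *Cd52*, and it was replicate 3 for *Adgre1*, *Cd68* and *C1qa*, so no single ENCDC library carried all of the few leukocyte reads.

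*Laptm5*, a lysosomal membrane protein of blood cells, was more abundant in ENCDCs than the other genes of this group. It had 152, 82, 306 and 147 reads in ENCDCs, against 1998, 1198, 1287 and 893 in gut cells (log2 fold change -2.92, standard error 0.36, adjusted p = 8.64e-05). That was 13.2% of the gut mean, and replicate 3 was again the highest ENCDC library. No exon of *Laptm5* or *Cyba* overlaps another gene in the annotation.

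The 9 cytoskeletal and signalling genes were all lower in ENCDCs and had the lowest median fitted log2 fold change of the roles, -8.49 (-7.73 with the genes that had no ENCDC read at their bound). *Lcp1*, the actin-bundling protein L-plastin, had 38, 31, 28 and 25 reads in ENCDCs, against 2631, 1547, 1786 and 1024 in gut cells (log2 fold change -5.78, standard error 0.30, adjusted p = 1.39e-07). Its ENCDC counts lay close together, at 1.81% of the gut mean. *Coro1a*, the actin regulator coronin 1A, which is known from leukocytes and also from neurons, had 374, 400, 598 and 334 reads in ENCDCs, against 1450, 1159, 906 and 755 in gut cells. It kept 41.3% of its gut mean in ENCDCs (log2 fold change -1.27, standard error 0.23, adjusted p = 0.00108) and was not called in a test against a 2-fold change (adjusted p = 0.178). It shares 26 exon bases with *Bola2* on the opposite strand, which had 333 to 545 reads in ENCDCs and 199 to 256 in gut cells.

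The remaining 7 genes of this role had between 0 and 6 reads over all ENCDC libraries. *Myo1f*, a class I myosin of leukocytes, had none, against 597, 374, 345 and 239 in gut cells, and was at least 501-fold lower. *Arhgap30*, a GTPase-activating protein, had none, against 368, 213, 222 and 76, and was at least 283-fold lower. *Tifab*, an inhibitor of TIFA signalling, was at least 242-fold lower with 118 to 280 reads in gut cells, and *Pik3cg*, the gamma catalytic subunit of phosphoinositide 3-kinase, at least 213-fold lower with 92 to 234. *Vav1*, a guanine nucleotide exchange factor of blood cells, had 6 reads in ENCDC replicate 1 alone, against 239 to 431 in gut cells. *Hcls1*, the blood-cell relative of cortactin, and *Was*, which encodes the Wiskott-Aldrich syndrome protein, had 1 ENCDC read each, against 92 to 199 and 27 to 63 in gut cells.

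**Figure D2:**
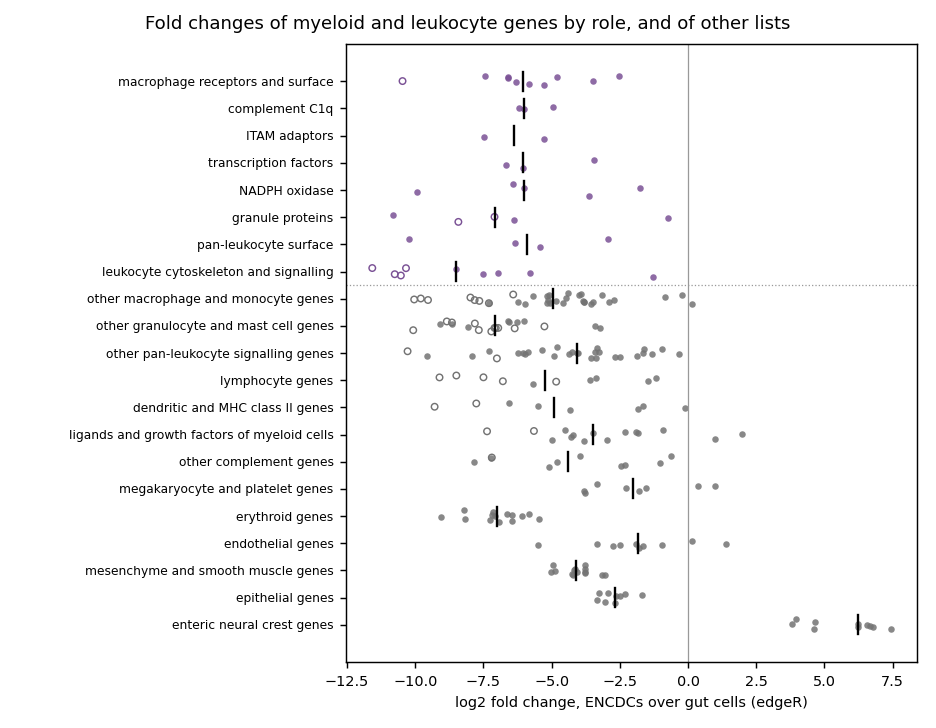
Log2 fold change of each tested gene (ENCDCs over gut cells, edgeR) on the horizontal axis, for the 41 genes by role above the dotted line and for 13 other gene lists below it. Points are genes, open points genes with no ENCDC read (whose value depends on the prior count), and black bars medians; the role medians of the fitted values lie between -8.49 and -5.89.

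Of the 41 genes, 8 share exon bases with another annotated gene and 33 do not. All 33 were called lower. *Csf1r* shares 873 bases with *Hmgxb3*, which had 728 to 928 reads in ENCDCs and 546 to 788 in gut cells, and the part of shared bases in the *Csf1r* count was not tested. The other overlaps were those of *Cd52* with *Crybg2* (172 bases), *Mpo* with *Gm11505* (512 bases), *Cx3cr1* with *Gm33858* (78 bases) and *Lcp1* with 2 non-coding genes.

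The reads that ENCDCs did hold were spread unevenly over genes. The summed normalized count of all 41 genes was 4.999%, 4.50%, 8.73% and 5.12% of the gut mean in ENCDC replicates 1 to 4. The 5 genes above 10% made up most of it, with sums of 785, 745, 1403 and 804 normalized counts, and the other 36 genes had sums of 226, 165, 362 and 231. This division was made after the values were seen. As a share of the gut mean, the 36 genes stood at 1.35%, 0.98%, 2.16% and 1.38%, and the 5 genes at 22.9%, 21.7%, 40.9% and 23.4%. ENCDC replicate 3 was the highest library for both, and also for mesenchyme and smooth muscle genes (13.51% of the gut mean, against 2.43% to 5.26% in the other ENCDC libraries) and for epithelial genes (18.2%, against 9.14% to 15.0%). Erythroid genes stood between 0.549% and 1.49% in ENCDCs, with replicate 2 the highest. The part of transcripts of other cell types in the ENCDC values was not tested.

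Because the ENCDC reads were few, 1 library often set the size of a fold change. For 7 genes (*Trem2*, *Cybb*, *Mpo*, *Ptprc*, *Was*, *Hcls1* and *Vav1*) all ENCDC reads lay in a single library, so none remained without it and no fold change is given for that case. Of the other genes, 11 had a fold that moved by more than 1.5 times when 1 ENCDC library was left out, and leaving out a gut library moved none by that much. Without replicate 3, the log2 fold change was -8.28 for *Adgre1* (-5.27 with all libraries), -6.17 for *C1qa* (-4.95) and -4.21 for *Cd68* (-3.49). Without replicate 4, it was -7.54 for *Cd53* and -3.24 for *Cd14*. Without replicate 1 it was -7.75 for *Ikzf1* and -5.46 for *Aif1* (-4.80 with all libraries). Without replicate 2 it was -7.97 for *Cx3cr1* (-6.59 with all libraries). *Ncf4* without replicate 3, and *Ncf1* and *Cd52* without replicate 4, kept 1 ENCDC read each, and their fitted values of -7.19, -8.94 and -8.59 rest on that read and on the prior count. With all libraries these values were -3.65, -6.40 and -6.36. *Cyba* and *Laptm5*, also highest in replicate 3, stood at -2.13 and -3.34 without it.

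**Figure D3:**
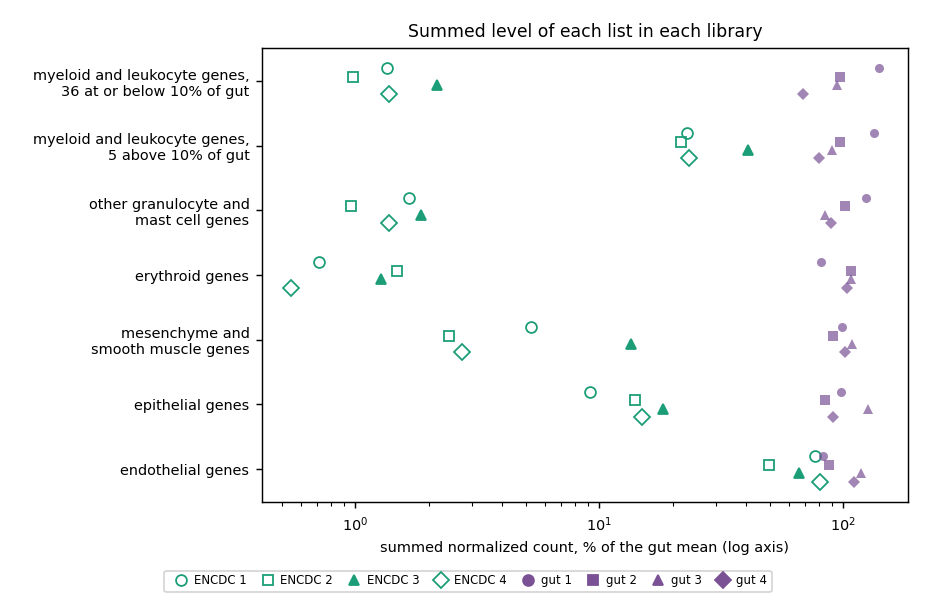
Summed normalized count of the 41 genes, in 2 classes, and of 5 other lists in each library, as a percentage of the mean of the 4 gut libraries (log axis). Green symbols are ENCDC libraries, with replicate 3 filled, and purple symbols gut libraries; the 36 low genes lie between 0.98% and 2.16% in ENCDCs and the 5 others between 21.7% and 40.9%.

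The gut libraries differed among themselves in these genes more than in most. The summed normalized count of the 41 genes was 139%, 97.5%, 93.6% and 70.4% of the gut mean in gut replicates 1 to 4. Of the 41 genes, 33 were highest in gut replicate 1, which was the highest gut library for 23.3% of all tested genes, and 32 were lowest in gut replicate 4, the lowest for 23.3%. Both held for 27 of the 41 genes (65.9%), against 7.44% of all tested genes. The median coefficient of variation over the gut libraries was 32.5% for the 41 genes and 16.0% for the 12666 tested genes whose mean gut count lay in the same range. A wide spread was not particular to the 41 genes. The median was 43.2% for other macrophage and monocyte genes, 34.7% for other pan-leukocyte signalling genes and 36.3% for endothelial genes. Among lists with less spread were mesenchyme and smooth muscle (11.6%), enteric neural crest (22.3%), epithelial (26.9%) and erythroid genes (27.2%). Gut replicate 1 was the highest for 23 of 34 other macrophage and monocyte genes and 22 of 29 other pan-leukocyte signalling genes. These values are descriptions, with no test.

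Of the granule genes, only *Lyz2* followed this order, being highest in gut replicate 1 and lowest in gut replicate 4. *Mpo* was highest in gut replicate 2 with a coefficient of variation of 15.3%, and *Ctsg* and *Prtn3* were also highest in replicate 2. *Elane* was highest in gut replicate 1 but lowest in gut replicate 3. All 5 oxidase genes, all 3 C1q genes and both ITAM adaptors were highest in gut replicate 1. The summed erythroid level was lowest in gut replicate 1, at 80.9% of the gut mean, although 10 of 14 erythroid genes were lowest in gut replicate 4. The sum of mesenchyme and smooth muscle genes ran from 90.8% to 109% over the gut libraries. Without gut replicate 1, 38 of the 41 genes were called lower in ENCDCs, and without gut replicate 4, 39.

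**Figure D4:**
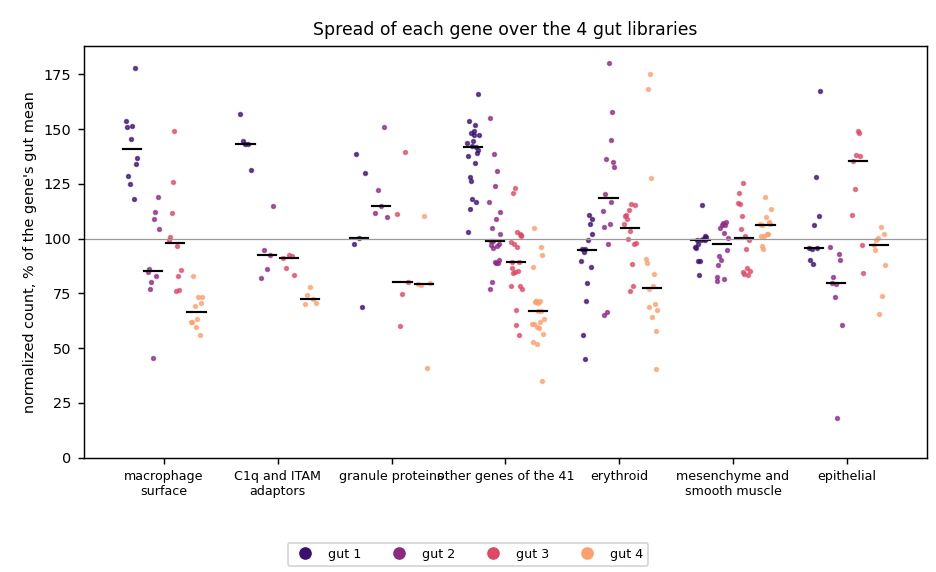
Normalized count of each gene in each gut library, as a percentage of the gene's mean over the 4 gut libraries (vertical axis), for the 41 genes in 4 classes and for 3 other lists. Points are genes, coloured by library from gut 1 to gut 4, and black bars are medians; the macrophage genes are mostly highest in gut 1 and lowest in gut 4, while mesenchyme and smooth muscle genes stay near 100%.

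Other genes of the same lineages were examined by lists. Over all tested genes, 20.9% were lower and 17.0% were higher in ENCDCs. Among other macrophage and monocyte genes, 32 of 34 tested were lower in ENCDCs and 0 were higher. *Sall1* was among those not called (log2 fold change 0.14, adjusted p = 0.816). *Ctss*, the lysosomal protease cathepsin S, averaged 20.1 ± 12.1 normalized counts over the ENCDC libraries and 697 ± 203 over the gut libraries (log2 fold change -5.11, adjusted p = 2.26e-06). *Stab1*, a scavenger receptor, averaged 35.6 ± 8.66 in ENCDCs and 746 ± 354 in gut cells, and *F13a1*, the coagulation factor XIII chain made by macrophages, 69.5 ± 67.1 in ENCDCs (36.1 ± 7.60 without replicate 3) and 993 ± 372 in gut cells. The log2 fold change of *F13a1* was -3.83, and -4.78 without ENCDC replicate 3. *Tmem119*, a microglial gene that bone-forming cells also express, had 207, 198, 613 and 192 reads in ENCDCs, against 1895, 1817, 2269 and 2137 in gut cells, and was not highest in gut replicate 1. Its log2 fold change was -2.70, and -3.29 without ENCDC replicate 3.

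Granulocyte and mast cell genes outside the 41 were lower in 20 of 20 tested, and in 18 without ENCDC replicate 3. Of the 23 genes of this list in the table, 13 had no ENCDC read and 5 had 1 to 3. A gene with no ENCDC read could be tested through its gut counts alone and could not be called higher. The mast cell protease genes *Cpa3* and *Cma1* averaged 11.8 ± 14.6 and 0.513 ± 0.592 normalized counts in ENCDCs, against 758 ± 219 and 252 ± 58.3 in gut cells. The neutrophil genes *S100a8* and *S100a9* had 0 to 1 and 0 to 4 reads in ENCDCs, against 155 to 318 and 159 to 284 in gut cells. Both were highest in gut replicate 2, as *Mpo* was. Of the 20 tested genes of this list, however, 10 were highest in gut replicate 1 and 6 in gut replicate 2.

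Of the other pan-leukocyte signalling genes, 26 of 29 were lower and 0 were higher. *Arhgdib*, a GDP-dissociation inhibitor of blood cells, had 48, 22, 164 and 16 reads in ENCDCs, against 1937, 2119, 1563 and 1505 in gut cells (log2 fold change -4.79, adjusted p = 5.53e-05), and its log2 fold change was -5.90 without replicate 3. *Fermt3*, which activates integrins, averaged 16.0 ± 11.4 in ENCDCs and 665 ± 184 in gut cells. *Lyn*, a Src family kinase, was lower by less, with 229 ± 36.2 in ENCDCs and 440 ± 128 in gut cells (log2 fold change -0.94, adjusted p = 0.00748). *Plcg2* (log2 fold change -1.61, adjusted p = 0.0505), *Cebpa* (-1.34, adjusted p = 0.15) and *Myb* (-0.33, adjusted p = 0.418) were not called.

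The ligands that sustain or restrain myeloid cells did not move one way. Of 15 tested, 12 were lower and 2 were higher in ENCDCs, and *Flt3l* was not called (log2 fold change -2.97, adjusted p = 0.0619). *Csf1*, the ligand of the *Csf1r* product and named for that reason, had 119, 130, 167 and 107 reads in ENCDCs, against 471, 442, 527 and 482 in gut cells (log2 fold change -1.83, standard error 0.19, adjusted p = 1.93e-05). *Cxcl12*, a chemokine that retains blood cell precursors, averaged 208 ± 199 in ENCDCs and 4744 ± 217 in gut cells, with 497 reads in ENCDC replicate 3 and 71 to 166 in the other ENCDC libraries. Its ENCDC mean was 110 ± 50.9 without replicate 3, and its log2 fold change -4.51 with and -5.42 without that library. *Cd47*, a signal against engulfment, averaged 700 ± 109 in ENCDCs and 1330 ± 110 in gut cells (log2 fold change -0.93, adjusted p = 2.62e-04).

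*Cd200* and *Mif* were higher in ENCDCs. *Cd200*, whose product binds an inhibitory receptor on myeloid cells and is also a neuronal surface protein, had 949, 917, 864 and 819 reads in ENCDCs, against 130, 175, 400 and 217 in gut cells (log2 fold change 1.99, standard error 0.29, adjusted p = 2.83e-04). *Mif*, macrophage migration inhibitory factor, had 4946, 5815, 6041 and 4829 reads in ENCDCs, against 2760, 2878, 2662 and 3113 in gut cells (log2 fold change 0.97, standard error 0.10, adjusted p = 1.62e-05). Neither overlapped between the populations.

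Complement genes outside C1q were lower in 7 of 10 tested. *C5ar1* and *C3ar1*, the receptors for the anaphylatoxins, had 0 to 2 and 0 to 24 reads in ENCDCs, against 89 to 174 and 194 to 433 in gut cells. *Cfp*, properdin, averaged 24.6 ± 5.12 in ENCDCs and 122 ± 42.2 in gut cells (log2 fold change -2.30, adjusted p = 6.24e-04). *C2*, *Cfb* and *Cd93* were not called (log2 fold change -2.47, -1.01 and -0.63), also without ENCDC replicate 3, where *Cd93* stood at -1.24.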

How the data were processed

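mRNA-seq of 4 ENCDC and 4 gut-cell libraries was used; the labels give the groups and replicate numbers. The authors used STAR 2.4.2a (mm10) for alignment and PORT for normalization, and deposited its minimum normalized read count per gene, a whole-number count that equalizes library depth by discarding reads. The deposit's design text names small RNAs and CPM, whereas the labels and values are those of mRNA read counts. Because reads were dropped to equalize depth, low counts carry more sampling noise than the libraries as sequenced, and counting intervals and floors cover counting error only.

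ENCDCs were compared with gut cells in edgeR 4.0.16 (R 4.3.3) by the quasi-likelihood F test after TMM scaling. Benjamini-Hochberg adjustment ran over the 18866 genes that averaged 3 or more reads, with reads in 3 or more of the 4 libraries, in 1 population or both, and an adjusted p under 0.05 counted as a call. A gene with no ENCDC read was given a bound on its fold change from a floor of 3 reads over the 4 libraries, and one with 1 to 3 reads an exact 95% interval of the ratio. Exon lengths and overlaps were taken from GENCODE, and promoter windows from RefSeq (GRCm38.p6). The alternatives were voom and limma 3.58.1 (the tool of the study), DESeq2 1.42.0, RLE or no factors, no filter or stricter filters, a 2-fold threshold, a replicate block, and each library left out. The fits were tested on simulated data. Tables and figures used Python 3.11.15, pandas 2.3.3, scipy 1.17.1 and matplotlib 3.10.9.

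The 41 genes, the other lists and the tests were chosen with earlier results of these data known. Of the 41 genes, the text names all, and gives single-library counts for the 2 highest of each role in gut cells, those not called and those the results turn on. From each other list it names at most the 4 most abundant called genes and any gene called in the opposite direction, with *Csf1* added after its values were seen. Listed genes without a row in the table, or with too few reads, were left out of the counts. Some genes that this rule picks from the other lists are left out of the text. Small RNA data were not analysed here.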

Additional observations from a re-analysis of the deposited data

Results flagged for a closer look

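With 4 libraries per population, a library was singled out when its gap to the nearest other library exceeded Dixon's 95% critical value for the range of its group. Chance marks about 1 in 20 groups of normally distributed values, a rate that does not hold for counts near 0. Here 19 of 130 groups were marked, a number that cannot be set against that rate. The mark was certain for the 7 genes whose ENCDC reads all lay in 1 library. It was impossible for the 7 genes with no ENCDC read, and the sums share genes. Of the 41 genes, 14 were marked in ENCDCs, each for its highest library, and 0 in gut cells. In 9 of the 14 every ENCDC count was under 10, so that a few reads in 1 library set the mark. Those were *Trem2* (highest normalized count 2.01), *Cybb* (1.00), *Ncf1* (9.30), *Mpo* (1.02), *Ptprc* (1.03), *Cd52* (7.23), *Was* (1.02), *Hcls1* (1.01) and *Vav1* (6.09). The other 5 were *Adgre1* (43.2 in ENCDC replicate 3), *Cyba* (456.9 in replicate 3), *Ncf4* (20.1 in replicate 3), *Fcer1g* (19.3 in replicate 1) and *Cd53* (36.2 in replicate 4).

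Among summed levels, ENCDC replicate 3 was marked as the highest ENCDC library for all 41 genes (1765 normalized counts), for the 5 genes above 10% of their gut mean (1403), for the NADPH oxidase genes (494) and for the other macrophage and monocyte genes (1616). This library also had the highest summed level of mesenchyme and smooth muscle genes, 13.51% of the gut mean. Gut replicate 1 was marked as the lowest gut library for the summed erythroid genes (75406 normalized counts, 80.9% of the gut mean), while it was the highest gut library for the sum of the 41 genes.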

How the results depend on the processing

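The number of the 41 genes called lower in ENCDCs was 37 in the test against a 2-fold change, 39 with edgeR's own expression filter, 41 by DESeq2 and 40 by voom and limma, with RLE factors, with no factors, with no filter and with a mean count of at least 10. It was 38 to 40 when a library was left out, and 0 were higher under every alternative. Over all tested genes, the test against a 2-fold change called 2031 lower and 983 higher, in place of 3946 and 3212, because it asks for more than any change. Of 696 alternative fold changes of single genes, 683 kept their call and direction, 12 lost the call, 1 gained it (*Prtn3* by DESeq2) and 0 reversed. The lost calls were those of *Cd14*, *Ncf4* (adjusted p = 0.0626 in the test against a 2-fold change) and *Coro1a*.

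Same-numbered libraries of the 2 populations did not deviate together (correlations of -0.0133 to 0.0318 over genes), so the numbers were not taken to pair the libraries. With a replicate block, 39 of the 41 genes were called lower and *Cd14* was not (adjusted p = 0.118), and over all genes 3324 were lower and 2609 higher.

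The summed level in ENCDCs depends on the 5 more abundant genes. With the median of the genes' own percentages in place of the sum, ENCDC replicates 1 to 4 stood at 0.88%, 0.449%, 0.433% and 0.579% of the gut mean. Replicate 3 was no longer the highest by the median. In the sum of the other 36 genes it still was, at 2.16% of the gut mean against 0.98% to 1.38% in the other ENCDC libraries. Depth limits the genes with no ENCDC read to the bounds given. Leaving ENCDC replicate 3 out of the fits of the other lists, an alternative chosen after seeing the data, gave 18 of 20 granulocyte and mast cell genes and 8 of 10 endothelial genes lower, in place of 20 and 6, and the counts of the other lists did not move. In both fits 1 endothelial gene, *Kdr*, was higher in ENCDCs (log2 fold change 1.40, and 1.52 without replicate 3). Its mean normalized count was 842 in ENCDCs and 318 in gut cells.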

Other observations

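Transcripts of other leukocytes were also higher in gut cells. Of the lymphocyte genes, 8 of 10 tested were lower in ENCDCs, though 8 of 18 in the table had too few reads to be tested. Over all tested genes, 20.9% were lower. *Il7r*, a receptor of lymphocytes and their precursors, had no ENCDC read, against 71, 132, 49 and 29 reads in gut cells, and *Nkg7*, of cytotoxic cells, had none, against 54, 57, 33 and 39. *Lck*, a kinase of T cells, had 63, 105, 55 and 57 reads in ENCDCs, against 133, 154, 165 and 211 in gut cells (log2 fold change -1.19, adjusted p = 0.0103), and *Cd79b*, a B cell receptor chain, had 0, 7, 18 and 0 in ENCDCs, against 93, 57, 55 and 64 in gut cells, a log2 change of -3.36, or -4.72 without ENCDC replicate 3.

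Of the dendritic cell and MHC class II genes, 7 of 8 were lower in ENCDCs. *Cd74*, the invariant chain, had 6, 8, 0 and 0 reads in ENCDCs, against 644, 411, 194 and 187 in gut cells, and *H2-Aa* had none, against 137, 81, 55 and 46. *H2-Ab1* kept 28 to 44 reads in ENCDC replicates 1 to 3 and 20 in replicate 4, against 60 to 151 in gut cells. *Zbtb46* was not called (log2 fold change -0.10, adjusted p = 0.713), at 583 ± 142 normalized counts (SD, n = 4) in the ENCDC libraries and 624 ± 62.8 in the gut libraries. Of the megakaryocyte and platelet genes, 4 of 8 were lower, among them *Pf4*, with 14, 13, 85 and 4 reads in ENCDCs, against 389, 302, 303 and 212 in gut cells. The log2 fold change of *Pf4* was -3.33, and -4.80 without ENCDC replicate 3.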
